A study of Mus musculus with 16 samples.

Results

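The cytosolic ribosomal protein genes are the 80 protein-coding mouse genes whose symbol is Rpl or Rps followed by a number and at most 1 of the letters a, x and l, together with Rplp0, Rplp1, Rplp2 and Rpsa. They were chosen by symbol alone from the 21938 protein-coding genes that the GENCODE annotation of GRCm38 (mm10) places on chromosomes 1 to 19, X and Y. Of the 80, 49 code for proteins of the large subunit and 31 for proteins of the small subunit. The accessibility of their promoters was read from ATAC-seq, an assay in which a transposase inserts sequencing adapters into open chromatin.

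The libraries came from splenic B cells of C57BL/6 mice that express Cre from CD23, which is active in mature B cells. In CD23-Cre Brg1 fl/+ mice 1 allele of Smarca4, the gene for the chromatin remodeling ATPase Brg1, was deleted in these cells, and in CD23-Cre Brg1 fl/fl mice both alleles were deleted. There were 4 libraries of each genotype, each made from 50000 cells isolated with CD43 beads and cultured with IL-4 at 20 ng/mL and LPS at 10 µg/mL. The labels state 72 h of culture and the design text 96 h, and the authors' ATAC-seq methods give 4 days. Littermates without a floxed allele had no ATAC-seq library here, so each comparison is between the loss of both alleles and the loss of 1. The sources used here do not tie libraries to mice.

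Ribosomal proteins assemble with ribosomal RNA into the subunits that translate every mRNA. They are needed in nearly equal numbers, and a growing B cell raises their production as it enters the cycle. Their genes belong to the most constantly expressed in the genome. Most of their mRNAs start with a C followed by a run of pyrimidines, the 5′ terminal oligopyrimidine (TOP) tract, through which the mTOR pathway controls their translation.

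The libraries differed in depth. Each list held from 6271 to 14614 peaks, and the number of fragments at the summit of each peak was recovered from the peak caller's values. Over the 4238 promoter regions detected in all lists the median summit of the Brg1 fl/+ libraries, numbered 1 to 4, held 79, 51, 24 and 36 fragments. That of the Brg1 fl/fl libraries, numbered likewise, held 48, 22, 43 and 43. By this measure, called depth here, Brg1 fl/+ library 3 and Brg1 fl/fl library 2 were the shallowest and Brg1 fl/+ library 1 was the deepest. It does not separate the amount of sequencing from the enrichment at promoters. The lowest background recovered in a list gave another order, with 1.67, 1.46 and 1.38 fragments in Brg1 fl/fl libraries 1, 3 and 4 and 1.30 in Brg1 fl/+ library 1. The promoter of Smarca4 had a peak in all 8 lists, which does not check the deletion of its floxed exons. Of the markers, 5 of 8 B cell genes had a promoter peak in at least 1 list (among them Pax5, Cd74 and Ms4a1 in all 8 and Cd79a in 1), against 1 of 6 T cell genes (Lck, in 1 Brg1 fl/+ list), 0 of 6 myeloid and 0 of 6 erythroid genes.

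The sequence under the peaks is shown first, with short elements that recur in promoters of ribosomal protein genes. The window ran from 250 bp upstream to 50 bp downstream of the annotated start site nearest the summit, and both strands were read. The word TCTCGCGA, bound by the CpG-island factor BANP, was in 15 of the 77 promoters with a peak, or 19.5%. Among promoters open in all 8 lists it was in 9 of 51 ribosomal protein genes, 17.6%, against 182 of 4774 other protein-coding genes, 3.81%. Of the 15, 4 are shown from 80 bases upstream of the start site to 20 bases into the transcript, 5′ to 3′, with the word or its reverse complement in capitals (overlapping copies on both strands give TCTCGCGAGA). They lie at chr4:86857335-86857434 (minus strand, Rps6), chr2:32961640-32961739 (plus, Rpl12), chr17:28328504-28328603 (plus, Rpl10a) and chr11:68901503-68901602 (plus, Rpl26) of GRCm38.
Rps6: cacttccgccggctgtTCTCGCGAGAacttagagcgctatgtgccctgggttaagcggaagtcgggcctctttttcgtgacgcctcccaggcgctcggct
Rpl12: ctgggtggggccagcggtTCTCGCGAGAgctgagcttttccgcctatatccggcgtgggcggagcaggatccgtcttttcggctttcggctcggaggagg
Rpl10a: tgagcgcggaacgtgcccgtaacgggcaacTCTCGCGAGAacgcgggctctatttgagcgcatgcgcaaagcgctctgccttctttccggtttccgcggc
Rpl26: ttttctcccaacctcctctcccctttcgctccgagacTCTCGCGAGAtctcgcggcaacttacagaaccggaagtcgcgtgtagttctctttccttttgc

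The summit lay close to the word in many of these promoters. Over the 15 genes the median distance between the median summit and the nearest copy was 44 bp, and in Rps19 the distance was 228 bp. A window of this kind is short, so that the summit of any promoter peak falls near any word within it, and the distance is given as a description.

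ETS factors recognise the word CCGGAAG, which was in 24 of 51 promoters of ribosomal protein genes open in all lists, or 47.1%, against 22.7% of the 4774 others. Rps21 and Rps25 are shown over the same bases, with the word in capitals. They lie on the plus strand at chr2:180257297-180257396 and chr9:44407580-44407679 of GRCm38.
Rps21: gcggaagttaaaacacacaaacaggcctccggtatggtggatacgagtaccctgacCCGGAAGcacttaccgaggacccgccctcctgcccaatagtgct
Rps25: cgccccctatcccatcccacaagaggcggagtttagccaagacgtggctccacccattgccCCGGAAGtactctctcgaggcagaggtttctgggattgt

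The SP/KLF word GGGCGG went the other way. It was in 52.9% of the 51 promoters against 79.7% of the others, and the window of the ribosomal protein genes held less G and C, with a median of 58.0% against 64.7%. The ratio of observed to expected CpG was alike, at 0.897 and 0.870. The TATA box letters TATAAA were in 5 of the 51 promoters, 9.80%, against 4.02%. CACGTG, the E-box of Myc, was in 11.8% against 12.8%, CCAAT, read by NF-Y, in 31.4% against 43.6%, the YY1 word AAGATGGC in 3.92% against 6.62%, and the NRF1 word GCGCATGC in 3.92% against 10.1%. These shares describe the promoters and carry no test, and the part of base composition in them was not tested.

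**Figure D1:**
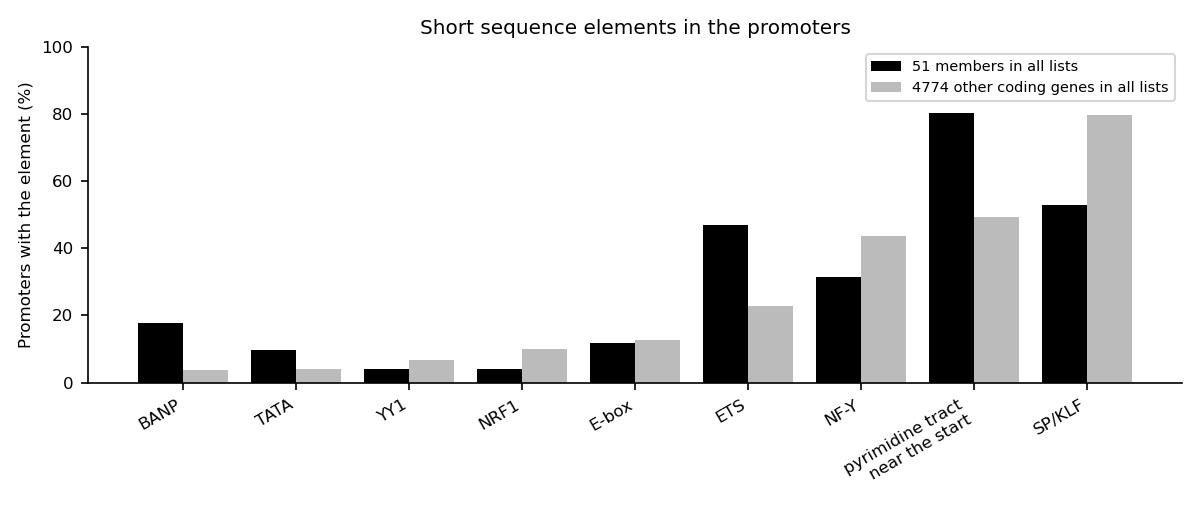
Share of promoters, in percent, that hold each short element, for the 51 ribosomal protein genes with a peak in all 8 lists (black) and the 4774 other protein-coding genes with a peak in all 8 lists (grey). The words were read in the 300 bp window on either strand, and the pyrimidine tract within 25 bp of the start site on the sense strand alone. The BANP and ETS words and the pyrimidine tract were found in a larger share of the ribosomal protein genes, and the SP/KLF word in a smaller one.

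On the sense strand a C followed by at least 4 pyrimidines lay within 25 bp of the start site in 41 of the 51 genes, 80.4%, against 49.3% of the others. The tract began exactly at the annotated start in 7 of the 51, 13.7%, against 2.09%. By the RefSeq start sites of GRCm38.p6, which matched 60 of the 80 genes, 13 genes or 21.7% began with such a tract, against 2.78% of 3882 others open in all lists that matched. The start sites of Rps10 and Rpl4 are shown from 30 bases upstream to 20 bases into the transcript, with the tract in capitals. They lie at chr17:27635225-27635274 (minus strand) and chr9:64173345-64173394 (plus) of GRCm38. At its RefSeq start Rps10 also began with such a tract, whereas Rpl4 did not. The shares of exact starts thus depend on the annotation used and do not measure where the mRNAs begin in these cells.
Rps10: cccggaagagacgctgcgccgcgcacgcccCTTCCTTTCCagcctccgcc
Rpl4: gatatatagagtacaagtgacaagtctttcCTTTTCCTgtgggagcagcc

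To find out how widely these promoters were open in activated B cells, peaks were counted that touched the stretch reaching from 1000 bp before to 100 bp after a start site. Of the 80 genes, 77 had a promoter peak in at least 1 list, and 51 had one in all 8. By the same rule 47.8% of all protein-coding genes had a peak in at least 1 list and 22% in all 8. In 16 of the 77 a region also touched the promoter stretch of another protein-coding gene, so that its fragments cannot be given to either gene. All 31 genes of the small subunit were detected, and 21 of them in all 8 lists, against 46 of 49 and 30 of 49 for the large subunit.

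The 3 genes without a peak in any list were Rpl3l, Rpl10l and Rpl39l. They are paralogs of ubiquitous genes, Rpl3l known from striated muscle and Rpl10l and Rpl39l from the male germ line. Their counterparts Rpl3, Rpl10 and Rpl39 had peaks in all 8 lists. A missing peak shows no summit past the caller's threshold at the depth of each list, and peaks were listed down to a −log10 q of 1.31. The ribosomal protein pseudogenes, processed copies scattered over the genome, had no peak over the gene body in any list, 0 of 294. No other set of gene bodies was counted by this rule, so that this share has no background beside it. How reads that match several copies were treated is not given in the sources used here, and its part in the absence of these peaks was not tested.

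The other paralog pair was open in both forms. Rps27l, a p53 target, had a peak in 7 of 8 lists, with 41, 28, 10 and 21 summit fragments in the Brg1 fl/+ libraries and 20, 17 and 22 in Brg1 fl/fl libraries 1, 3 and 4. Rps27, its ubiquitous counterpart, had a peak in 3 lists, with 24 and 15 fragments in Brg1 fl/+ libraries 1 and 2 and 10 in Brg1 fl/fl library 4. The paralog thus had more summit fragments than its counterpart in each of those 3 libraries. The promoter of Rps27 also holds a start site of Rab13.

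The number of genes detected varied with the median summit fragments of the library. In the Brg1 fl/+ libraries peaks were found at 77, 76, 59 and 71 of the 80 genes, in the order of their numbers. In the Brg1 fl/fl libraries they were found at 72, 61, 73 and 73. The lowest numbers belonged to the 2 shallowest libraries, 1 of each genotype, and the groups overlapped. Brg1 fl/+ libraries had a mean of 70.8 ± 8.26 genes (SD, n = 4), and Brg1 fl/fl libraries 69.8 ± 5.85 (SD, n = 4). This difference did not pass a two-sided exact permutation test over libraries (p = 0.771, where the smallest p that 4 against 4 allows is 0.0286). Over all protein-coding genes from 26.8% to 46.8% were detected per library, against 73.8% to 96.3% of the ribosomal protein genes.

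**Figure D2:**
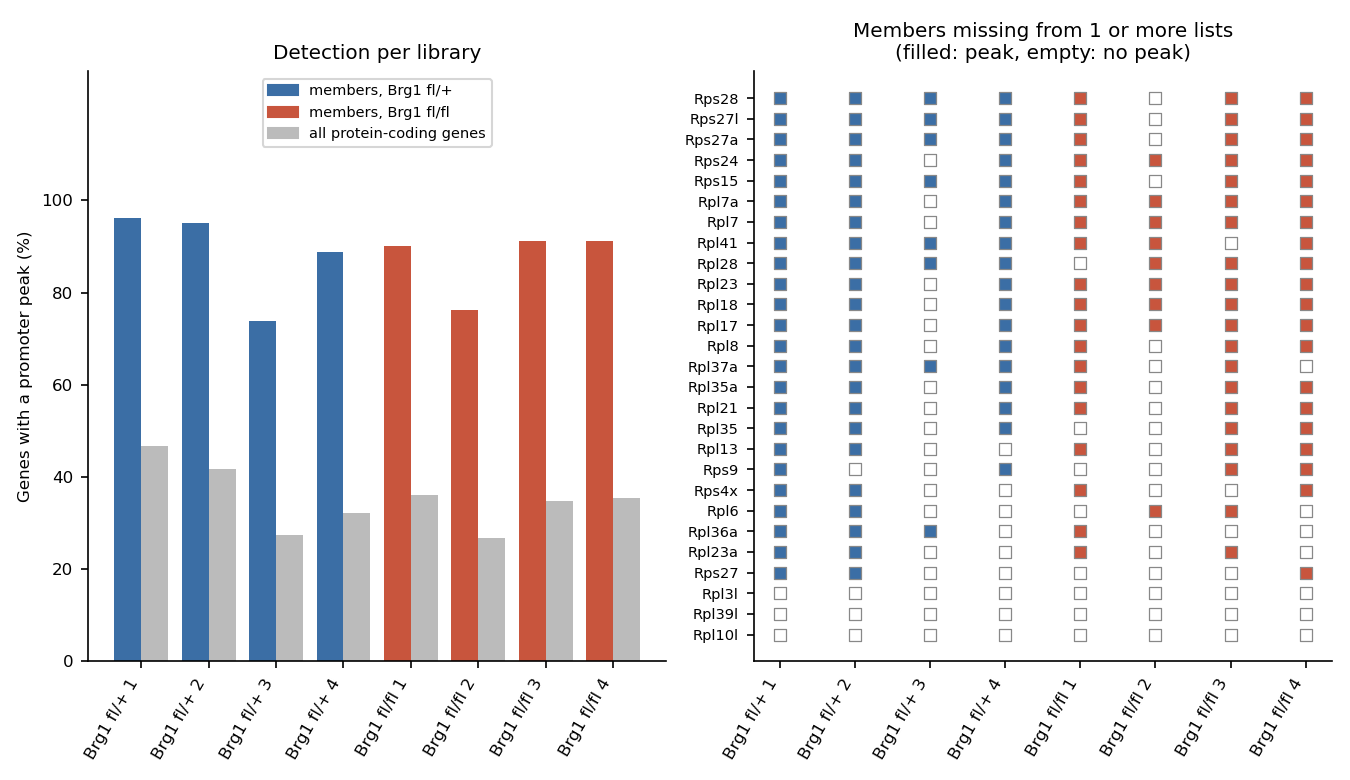
Left, percent of the 80 ribosomal protein genes (blue, Brg1 fl/+; red, Brg1 fl/fl) and of all protein-coding genes (grey) with a promoter peak in each library. Right, 27 of the 29 ribosomal protein genes without a peak in 1 or more lists, where a filled square is a peak and an empty one none: most empty squares fall in Brg1 fl/+ library 3 and Brg1 fl/fl library 2, and 3 genes have none filled.

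The 26 genes detected in some lists but not all were found without exception in Brg1 fl/+ library 1, the list with the most fragments at its median summit. Brg1 fl/+ library 3 missed 18 of them and Brg1 fl/fl library 2 missed 16. Of the 26, 13 were missing from 1 list, among them Rpl7, Rpl7a, Rpl17, Rpl18, Rpl23 and Rps24 from Brg1 fl/+ library 3, Rps15, Rps27a (a ubiquitin fusion), Rps27l and Rps28 from Brg1 fl/fl library 2, Rpl28 from Brg1 fl/fl library 1, and Rpl41, the smallest ribosomal protein, from Brg1 fl/fl library 3. Another 4, among them Rpl8, Rpl21 and Rpl35a, were missing from the 2 shallowest lists alone. The 9 that remain were found in fewer lists: Rpl37a in 6, Rpl13 and Rpl35 in 5, Rpl6, Rpl23a, Rpl36a, Rps4x and Rps9 in 4, and Rps27 in 3.

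These 26 promoters had weaker peaks where they had any. Their median fold over the local background was 8.27, against 11.4 at the 51 promoters in all lists, and their median place by q was 67.5% of the way down the promoter peaks of a list, against 35.0%. Of the 77 genes, 10 had a peak in fewer lists of Brg1 fl/fl than of Brg1 fl/+ and 8 in more, or 13.0% and 10.4%. Over all genes with a promoter peak the same shares were 32.4% and 11.5%. No ribosomal protein gene had a peak in every list of a genotype and in none of the other. The counts of 10 and 8 moved with the shallow libraries: without Brg1 fl/+ library 3 they were 18 and 1, and without Brg1 fl/fl library 2 they were 7 and 15. Without Brg1 fl/fl library 3 or 4 the 10 became 16, and without Brg1 fl/+ library 1, 2 or 4 the 8 became 16, 15 and 13.

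Rpl36a, on the X chromosome, had the largest surplus of Brg1 fl/+ lists, 3 against 1, together with Rpl37a at 4 against 2. The summit of Rpl36a held 32, 22 and 8 fragments in Brg1 fl/+ libraries 1, 2 and 3 and 10 in Brg1 fl/fl library 1. In that Brg1 fl/fl library its peak was among the weakest promoter peaks, at 98.2% of the way down by q.

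Ribosomal protein promoters were not among the strongest of the genome. Ranked by q within each list, the median peak of these genes stood between 35.9% and 52.4% of the way down the promoter peaks, with from 0 to 6 of the genes in the best 10% of a list. The summit fragments were then set on 1 scale. To the recovered fragments 1 was added, and each library was scaled to the same median over the 4238 promoter regions detected in all lists. Of the 51 regions of ribosomal protein genes among these, 29 had a mean below the median region and 22 above it, 16 were in the lowest 25% and 7 in the highest 25%. Their mean scaled summit fragments ran from 17.7 to 68.1, with a median of 39.1, against a median of 41.2 over all 4238 regions. Only genes that passed detection in every list are in these counts, 51 of the 80.

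**Figure D3:**
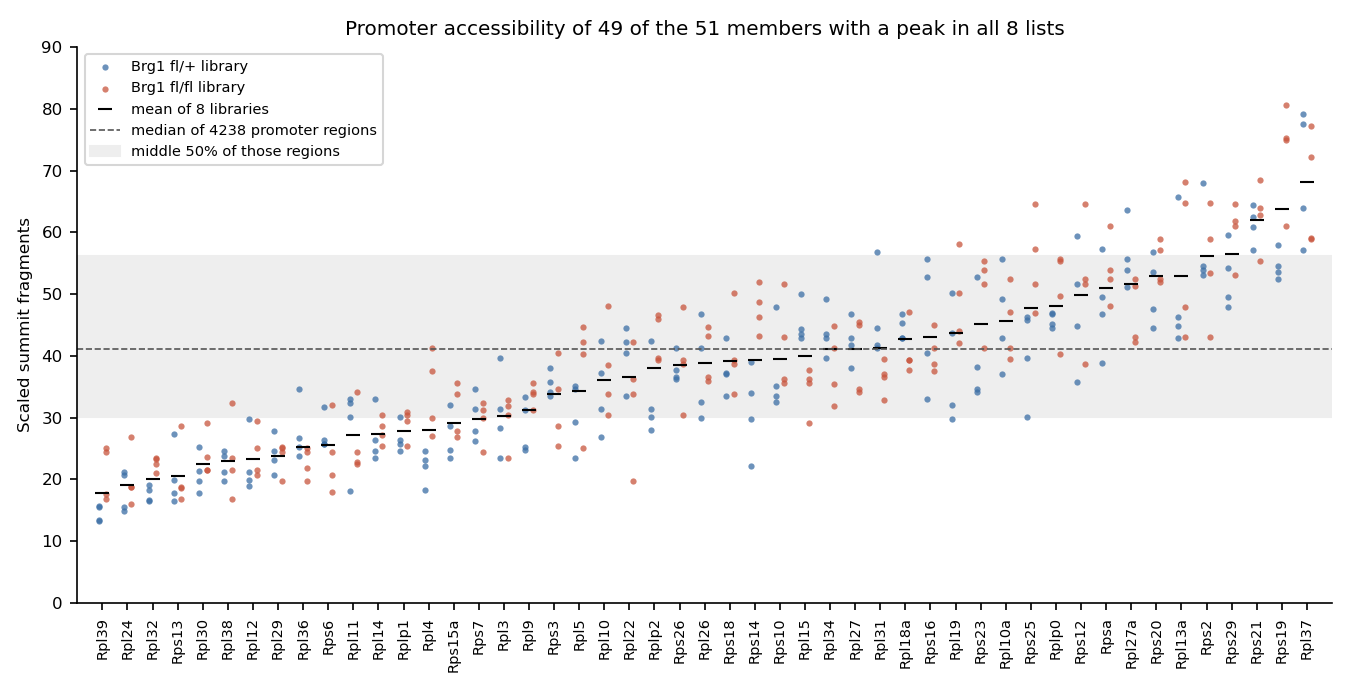
Scaled summit fragments (vertical axis) in each library for 49 of the 51 ribosomal protein genes with a peak in all 8 lists, in order of their mean (blue, Brg1 fl/+; red, Brg1 fl/fl; bar, mean of 8 libraries). The dashed line and the grey band are the median and the middle 50% of all 4238 promoter regions, and the genes spread from 17.7 at Rpl39 to 68.1 at Rpl37 across and beyond that band.

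The most accessible promoter was that of Rpl37, a protein of the large subunit that binds zinc. It had 63.9, 57.1, 77.6 and 79.2 scaled fragments in the Brg1 fl/+ libraries and 58.9, 77.1, 59.1 and 72.2 in the Brg1 fl/fl libraries. Both groups spanned nearly the same range, and the mean of 68.1 lay at the 86.2nd percentile of the 4238 regions.

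After Rpl37 came mostly genes of the small subunit, together with Rpl13a, whose introns host small nucleolar RNAs. Rps19, needed for maturation of the small subunit and mutated in Diamond-Blackfan anemia, had a mean of 63.8 scaled fragments, Rps21 61.9, Rps29 56.4, Rps2 56.2 and Rpl13a 52.9. Rps21 varied from 55.3 to 68.5 between libraries and Rpl13a from 42.8 to 68.2. The neighbours in this order therefore overlapped in their libraries.

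At the low end stood Rpl39, whose small protein lines the exit tunnel of the ribosome. It had 15.5, 13.5, 13.2 and 15.6 scaled fragments in the Brg1 fl/+ libraries and 17.7, 25.1, 16.9 and 24.4 in the Brg1 fl/fl libraries. Every Brg1 fl/fl value was above every Brg1 fl/+ value. Above it came Rpl24, which forms a bridge to the small subunit, with a mean of 19.1 scaled fragments, then Rpl32 with 20.1, Rps13 with 20.5 and Rpl30 with 22.5. Rpl38, whose loss alters the body plan in mice, had 22.9, Rpl12, at the base of the stalk, 23.3 and Rpl29, which mice can live without, 23.8. Of the 8 lowest promoters 7 belonged to the large subunit, and the median of the means per gene was 35.2 over 30 regions of the large and 45.2 over 21 of the small subunit.

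The proteins of the stalk, which recruits the elongation factors to the ribosome, are needed together but differed in the accessibility of their promoters. Rplp0, which anchors the stalk, had 46.9, 45.2, 44.6 and 46.8 scaled fragments in Brg1 fl/+ and 49.7, 55.6, 55.3 and 40.3 in Brg1 fl/fl. Rplp1 had 25.8, 24.6, 26.4 and 30.1 in Brg1 fl/+ and 29.5, 30.5, 30.9 and 25.3 in Brg1 fl/fl. Rplp2, the partner of Rplp1, had 31.5, 30.2, 28.1 and 42.4 in Brg1 fl/+ and 39.6, 46.6, 39.4 and 45.9 in Brg1 fl/fl. In all 8 libraries Rplp0 was above Rplp1, and for each of these genes the genotypes overlapped.

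Among other well-known members, Rpsa, which doubles as a laminin receptor precursor, had a mean of 51.0 scaled fragments and Rpl10, on the X chromosome and needed for the joining of the subunits, 36.1. Rpl5 and Rpl11, which bind Mdm2 when ribosome assembly fails, had 34.3 and 27.2. Rpl22, an RNA-binding protein needed for T cell development, had 36.6, Rpl3, near the peptidyl transferase center, 30.2, and Rps6, which is phosphorylated downstream of mTOR, 25.6. In Brg1 fl/fl against Brg1 fl/+ the adjusted p of these genes in the comparison of genotypes was 0.229 or more.

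The peaks of ribosomal protein genes were narrow and close to the start site, a shape not particular to them. Over the strongest peaks of all detected members the median summit was at -29 bp and the median width 433 bp. Mitochondrial ribosomal protein genes had -22 bp and 418.5 bp, and ribosomal protein genes outside the rule -11 bp and 435 bp. Ribosome biogenesis genes had -53 bp and 440.5 bp, and initiation and elongation factors -49 bp and 537 bp. All protein-coding genes had -42 bp and 467 bp. Over the 51 ribosomal protein genes in all lists the median summit lay from 26 to 36 bp upstream of the nearest start site, depending on the library, against 53 to 58 bp for the 4774 other genes. Within 100 bp of a start site were from 82.4% to 88.2% of the summits of the 51 genes, against 62.3% to 65.8% of the others. The nearest of all annotated start sites was used, and a gene with many of them can have a shorter distance for that reason. Rpl10a had 14 start sites and Rpl36 had 1. Their number was not compared with that of the other genes, and its part in the distances was not tested. The median peak width was from 313 to 591 bp, against 371 to 653 bp, and was smaller than that of the other genes in each of the 8 libraries. The summits of these genes also held slightly fewer fragments, with medians of 67 against 80 in Brg1 fl/+ library 1 and 20 against 22 in Brg1 fl/fl library 2, and the part of this in the width was not tested. Among these 51 genes Rpl36 was narrowest, with a median width over lists of 299.5 bp, and Rps19 was widest with 819 bp. The summit of Rpl4 lay at -242 bp from its start, in a promoter that it shares with Zwilch, and that of Rpl19 lay 52 bp downstream.

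**Figure D4:**
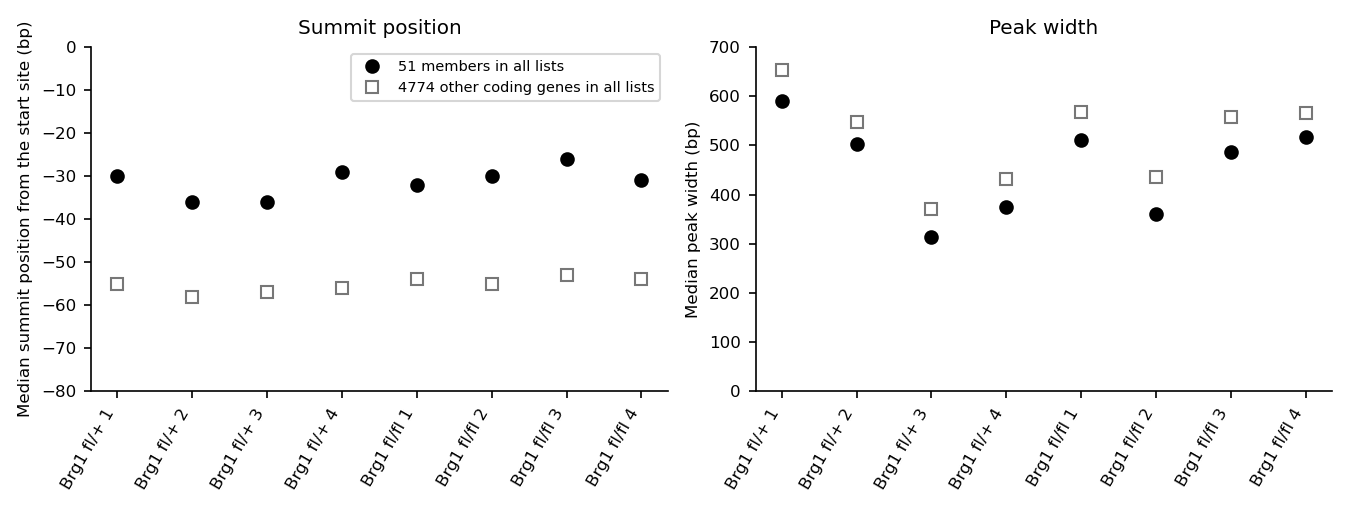
Median summit position relative to the nearest start site (left, bp, negative upstream) and median peak width (right, bp) in each library for the 51 ribosomal protein genes in all lists (filled circles) and the 4774 other protein-coding genes in all lists (open squares). In every library the filled circles lie nearer to the start site and lower in width.

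To ask whether losing the second Smarca4 allele changed these promoters, the scaled summit fragments were compared between genotypes with limma over all 4238 promoter regions. Of the 51 regions of ribosomal protein genes, 4 were called higher in Brg1 fl/fl and 0 lower at an adjusted p under 0.05. Over all regions 6.91% were called higher and 3.4% lower, so that the share of 7.84% among ribosomal protein genes was near the background. At an unadjusted p under 0.05 by limma, 8 or 15.7% were higher and 2 or 3.92% lower, against 16.1% and 9.16% of all regions. The median log2 difference was 0.095 over the 51 regions and 0.053 over the 4238, and 34 of the 51 lay within 0.2 of no difference.

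The 4 genes called higher were Rps14, Rpl4, Rps19 and Rps25. Rps14, whose loss of 1 copy impairs red cell formation in a myelodysplastic syndrome, had 34.0, 22.2, 29.7 and 39.0 scaled fragments in Brg1 fl/+ and 46.3, 52.0, 48.8 and 43.1 in Brg1 fl/fl. Every Brg1 fl/fl library was above every Brg1 fl/+ library, with the lowest value in Brg1 fl/+ library 2. The fold was 1.55 (95% interval 1.24 to 1.94), a log2 difference of 0.63 ± 0.16 (SE) with an adjusted p of 0.00884 by limma.

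Rpl4, a protein that lines the exit tunnel, lies at chr9:64173375-64178666 of GRCm38 on the plus strand. Its promoter region, chr9:64172707-64173574, also holds a start site of Zwilch, a kinetochore gene, so that its fragments cannot be given to either gene. It had 22.2, 18.2, 23.1 and 24.5 scaled fragments in Brg1 fl/+ and 26.9, 41.3, 37.5 and 30.0 in Brg1 fl/fl, without overlap. The log2 difference was 0.61 ± 0.18 (SE), with an adjusted p of 0.0226 by limma.

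Rps19 lies at chr7:24884371-24889806 on the plus strand, with its promoter region at chr7:24883975-24884841. It had 53.6, 52.4, 54.5 and 58.0 scaled fragments in Brg1 fl/+ and 74.9, 75.3, 60.9 and 80.6 in Brg1 fl/fl, without overlap. The log2 difference was 0.41 ± 0.12 (SE), with an adjusted p of 0.0217 by limma.

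Rps25, which is needed for translation from some internal ribosome entry sites, lies at chr9:44407139-44410427 on the plus strand and shares its region, chr9:44406924-44407880, with Trappc4. It had 39.7, 30.2, 46.2 and 45.7 scaled fragments in Brg1 fl/+ and 57.3, 64.6, 46.9 and 51.6 in Brg1 fl/fl. The groups did not overlap, but Brg1 fl/fl library 3 at 46.9 lay next to Brg1 fl/+ library 3 at 46.2. The log2 difference was 0.46 ± 0.15 (SE), with an adjusted p of 0.0353 by limma, and was 0.81 when taken over the libraries numbered 1 and 2, and 0.10 over those numbered 3 and 4.

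Without Brg1 fl/+ library 2 none of the 4 calls was kept and 0 of the 51 regions were called by limma, at an adjusted p of 0.0613 for Rps14, 0.0905 for Rpl4, 0.0578 for Rps19 and 0.182 for Rps25, and without Brg1 fl/fl library 1 or library 2 there were 2 calls. With the deposited fold in place of the fragments Rps14 alone passed, and when each genotype's libraries were joined in pairs (1 with 2, 3 with 4), Rps14 and Rps19 passed, at an adjusted p of 0.0360 and 0.0477 by limma. When the Brg1 fl/+ libraries alone were joined, an alternative chosen after seeing the data, none of the 4 passed, with an adjusted p of 0.0602 for Rps14 and 0.105 for Rps19 by limma. With quantile normalisation Rps19 and Rps25 no longer passed, at an adjusted p of 0.0743 and 0.0607 by limma.

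The groups did not overlap in 6 of the 51 regions with Brg1 fl/fl above, against 9.63% of all regions, and in 2 with Brg1 fl/fl below, against 4.79%. Besides the 4 genes called, these were Rpl32 and Rpl39 above and Rpl15 and Rpl31 below. Rpl39 had a log2 difference of 0.52 ± 0.20 (SE) at an adjusted p of 0.0827. Rpl15, which shares its promoter with Nkiras1, had 44.4, 50.0, 42.9 and 43.5 scaled fragments in Brg1 fl/+ and 36.2, 37.7, 35.6 and 29.1 in Brg1 fl/fl. Its log2 difference of -0.39 ± 0.15 (SE) had the most negative value of the 51, at an adjusted p of 0.0858, and so did not pass.

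**Figure D5:**
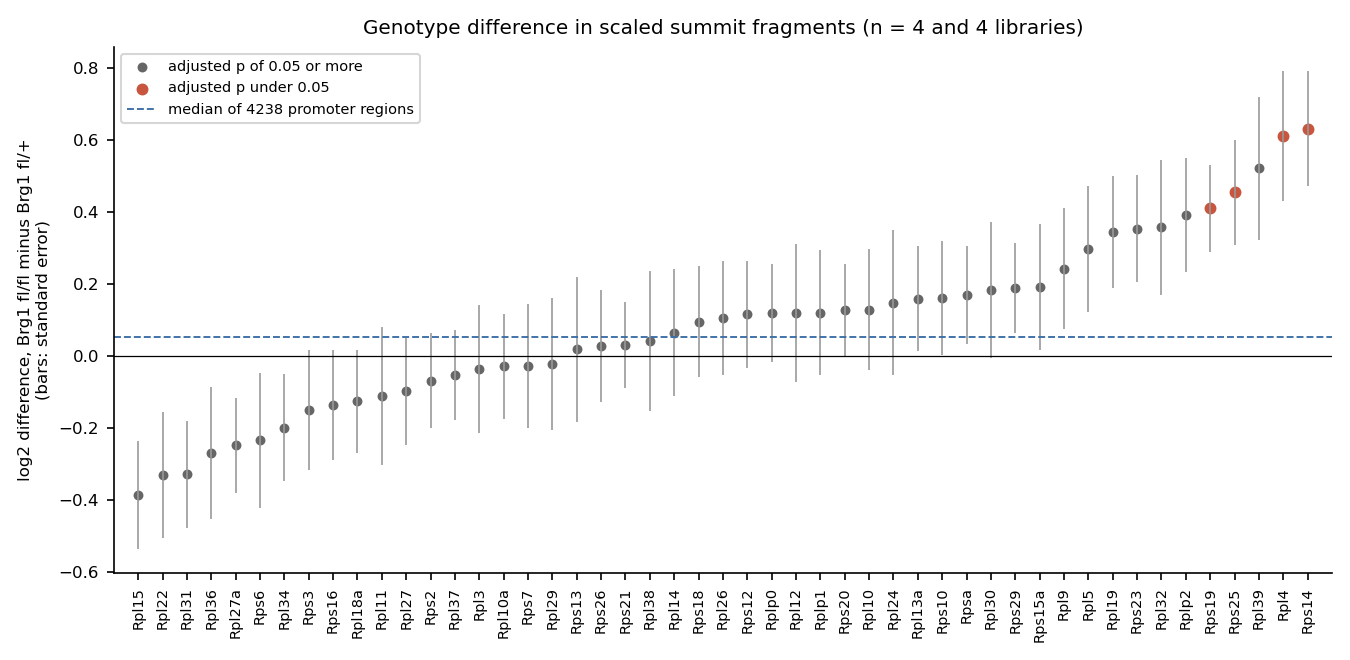
Log2 difference in scaled summit fragments between Brg1 fl/fl and Brg1 fl/+ for 49 of the 51 ribosomal protein genes with a peak in all lists, with its standard error (n = 4 and 4 libraries). Red points are the 4 genes with an adjusted p under 0.05 in limma, all above 0 (below 0 when scaled to the background), and the dashed line is the median of the 4238 promoter regions.

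All these differences are relative to the median promoter. The background of a library was taken as the lowest number of fragments that the peak caller expected at any of its peaks. It was 1.30, 0.806, 0.541 and 0.735 in the Brg1 fl/+ libraries, against 1.67, 0.783, 1.46 and 1.38 in the Brg1 fl/fl libraries. Such a value can rise with the total number of fragments of a library, those in peaks included. When the summits were scaled to this background in place of the median promoter, the median over all 4238 regions was -0.82 and that over the 51 ribosomal protein genes was -0.78. Under that scaling 48 of the 51 and 4041 of the 4238 were called lower in Brg1 fl/fl, and the ribosomal protein genes moved with the other promoters. The 4 genes called higher before had negative log2 differences. Of these, Rps19 and Rps25 were now called lower, at an adjusted p of 0.00615 and 0.0254 by limma. Rpl4 and Rps14 were not called, at 0.249 and 0.238. Whether chromatin was less open at promoters, the background was higher or the libraries held more fragments in total cannot be told apart from these lists.

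Other genes of the translation machinery were set beside them. The 7 ribosomal protein genes whose symbols fall outside the rule (among them Fau, Rack1, Rps3a1, Rpl7l1, Rpl22l1 and Rpl36al) had a promoter peak in all 8 lists without exception, and 0 of their 7 regions were called. The largest differences were those of Rpl7l1, with a log2 difference of -0.47 ± 0.17 (SE) at an adjusted p of 0.0618, and Rack1, a scaffold on the small subunit, with 0.18 ± 0.20 at 0.597.

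Of 78 mitochondrial ribosomal protein genes, 74 had a peak in at least 1 list but 30 in all 8, or 38.5% against 63.8% of the cytosolic ones. Of their 29 regions 4 were called higher (Mrps6, Mrps18b, Mrpl45 and Mrpl18) and 0 lower, beside 6.91% and 3.4% of all regions. Mrps6 had a log2 difference of 0.98 ± 0.16 (SE) at an adjusted p of 9.92e-05, larger than that of any cytosolic gene, and Mrps9 had -0.35 ± 0.14 at 0.110.

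The initiation and elongation factors had the most accessible promoters of these lists, with 33 of 33 detected, 25 in all 8 lists and a median scaled level of 50.9. Of their 26 regions 5 were called higher and 0 lower, among them both regions of Eif3b, a scaffold of the initiation factor that binds the small subunit, with log2 differences of 0.87 and 0.53, and Eif4b, a cofactor of the cap-binding helicase, with 0.54 ± 0.12 (SE) at an adjusted p of 0.00266. Eef2, which drives translocation, had -0.40 ± 0.17 at 0.127. Of the 32 ribosome biogenesis genes 31 were detected and 20 in all lists, and 0 of their 20 regions were called, from -0.45 for Fbl, the nucleolar methyltransferase, to 0.38 for Gar1. The median log2 differences were 0.069 for the mitochondrial genes, 0.18 for the factors and 0.10 for the biogenesis genes, beside 0.053 for all regions. Over all regions 6.91% were called higher and 3.4% lower. None of these lists was tested as a set, so that no departure from those shares is claimed.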

How the data were processed

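ATAC-seq peak lists of 8 libraries, 4 per genotype, were used, grouped by the sample labels. The authors used Bowtie2 for alignment to mm10 and MACS2 for peaks, library by library. Versions, options, the handling of duplicates and any transposase shift are not given in the sources used here. The deposited lists hold, per peak, the fold over local background (a ratio), −log10 p-value and −log10 q-value, a score (not used) and the summit offset. The 8 RNA-seq samples were not analysed here.

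Members and gene lists were chosen with earlier results of these data known. The summit's fragment number and its local background were solved from fold and −log10 p to within 0.002, which gave whole fragments for 99.9% of the peaks of each list. Overlapping peaks were joined into regions, and a gene was detected where a peak overlapped (at least 1 bp) the 1000 bp upstream to 100 bp downstream of any of its start sites (GENCODE, GRCm38). On promoter regions with a peak in all 8 lists, log2(fragments + 1), centred on the median of each library, was fitted with limma 3.58.1 (R 4.3.3; trended, two-sided) and adjusted by Benjamini-Hochberg over all 4238 regions, with a threshold of 0.05. Detection per library was compared by an exact permutation test. The fit and the recovery were tested on simulated data. Sequences were read with samtools and pysam from RefSeq's GRCm38. GRCm38 is mm10, and no peak ran past the end of a reference chromosome.

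Named are genes missing from any list, the 8 with the most and the 8 with the fewest mean scaled fragments, called genes, well-known members and paralogs, with 2 extremes each way in the other lists; Rpl15, Rpl31, Rpl32 and Rpl39, the genes whose sequences are shown, and those at the ends of width, position or distance to a word were named after their values were seen. Whether numbers shared by the genotypes' libraries pair them was not settled. The correlations of the deviations of libraries with the same number were -0.021, -0.032, -0.012 and -0.023. Within a genotype most of the spread was sampling noise, as given below, so that such values cannot exclude a pairing. Nothing says that libraries of a genotype came from separate mice, so p-values measure the spread between libraries, which may be technical. Within Brg1 fl/fl every pair of libraries agreed within sampling noise, with a ratio of chi-square to degrees of freedom from 0.801 to 0.867 over the 4238 regions. Within Brg1 fl/+ it was 0.888 for libraries 1 and 2 and 0.761 for 3 and 4, pairs that the file names group, and from 0.892 to 1.24 for the other pairs. The fixed design kept all 8, and joining them in pairs was an alternative. Precision is limited by 4 libraries per genotype and by depth, and values cover counting error of fragments that are not known to be unique molecules. Some genes and sequences that the rules cover are counted but not reported here by name.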

Additional observations from a re-analysis of the deposited data

Results flagged for a closer look

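In groups of 4 libraries, the values of 1 library stood far from the other 3 by Dixon's test in 8 of 76 groups examined, where chance gives about 1 in 20. Brg1 fl/fl library 2 stood apart from the other libraries of its genotype in the number of ribosomal protein genes detected, with 61, and in the median width of their peaks, with 350 bp. It is the shallowest of that genotype, with a median of 22 fragments at the summits of all promoter regions, and the part of depth in these values was not tested. In that library Rpl11 had 34.1 scaled summit fragments and Rps13 had 28.7, both above the other 3. In Brg1 fl/+ library 4 Rpl13a had 65.8 and Rps2 had 68.0, both above the other 3. In Brg1 fl/+ library 2 Rps6 had 31.7, above the other 3, and in Brg1 fl/fl library 3 Rpl29 had 19.7, below the other 3. None of these genes passed the threshold between genotypes.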

How the results depend on the processing

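The count of regions called lower in Brg1 fl/fl was 0 under every alternative but the scaling to the recovered background, where it was 48. The count called higher, 4, was 1 with the deposited fold, 2 with quantile normalisation, 0 with the scaling to the background, 2 with libraries joined in pairs and 0 with Brg1 fl/+ libraries alone joined, an alternative chosen after seeing the data. Without 1 library at a time it was from 0 to 5. Joining leaves fewer libraries, and the cause of the other changes was not tested. With the replicate block, in a paired fit, it was 4 and the median log2 difference 0.095, the difference in genes detected per library was -1, and the block changed no call among Rpl4, Rps14, Rps19, Rps25, Rpl15 and Rpl39. The median log2 difference, 0.095, was 0.0016 with the deposited fold, -0.78 with the scaling to the background, 0.035 with peaks whose −log10 q reached 10, and from 0.036 to 0.10 without 1 library. Under the scaling to the background Rpl4 had a log2 difference of -0.26, Rps14 -0.24, Rps19 -0.46 and Rps25 -0.42, and Rps19 and Rps25 were called lower. The number of genes detected in fewer Brg1 fl/fl lists, 10, was 20 with those stronger peaks and from 7 to 18 without 1 library, and the number detected in more, 8, was 17 with the same number of best peaks in each list and from 1 to 16 without 1 library. The median place by q, 41.6%, was 48.0% at the stricter q and 49.2% with the same number of peaks. Over all regions, 293 calls higher and 144 lower became 139 and 139 with quantile normalisation, 95 and 83 with the deposited fold, 170 and 75 with libraries joined in pairs, 73 and 22 with Brg1 fl/+ libraries joined, 282 and 136 with the replicate block, and from 179 to 279 and from 67 to 158 without 1 library. The 51 genes with a peak in all lists were 35 with peaks whose −log10 q reached 10, 47 with the same number of best peaks in each list, and from 51 to 58 without 1 library. The median summit position was upstream throughout. The level was not compared for the 29 of 80 genes that lacked a peak in at least 1 list, and the part of depth in this was not tested.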
